A study of Homo sapiens with 2 samples.

Results

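Kinesins are motor proteins that use ATP to move along microtubules or to take their ends apart. The human family was taken here as the protein-coding genes whose symbol starts with KIF followed by a digit or by C, which gave 42 of the 40392 Entrez genes in the tables. Of these, 12 kinesins that act in cell division (KIF2C, KIF4A, KIF11, KIF14, KIF15, KIF18A, KIF18B, KIF20A, KIF20B, KIF22, KIF23 and KIFC1) formed the mitotic set, and the other 30 formed the comparison set. The libraries came from KYSE30, an established line of esophageal squamous cell carcinoma. The mock group, 1 library, was made from stable transfectants of the pIRES2-EGFP vector, and the RHCG group, 1 library, from stable transfectants of a vector expressing human RHCG, an ammonia transporter of normal esophageal epithelium. The labels do not tell whether the transfectants were clones or pools, nor name the backbone of the RHCG vector. Total RNA depleted of ribosomal RNA was sequenced on the Ion Torrent platform. With 1 library per group there was no replicate spread and no test, and every difference below is a difference between 2 libraries.

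Mitotic kinesins build the spindle, move chromosomes and cut the daughter cells apart, and their transcripts are known to accumulate in the G2 and M phases of cycling cells. Most other kinesins carry cargo: conventional kinesin (kinesin-1) and the kinesin-3 class move vesicles, endosomes and mitochondria, and kinesin-2 carries the transport trains of cilia. Values are RPKM, reads per kilobase of transcript scaled to depth, so levels can be compared between genes. The depth recovered from the values was about 18900000 reads for mock and 22100000 for RHCG. RHCG itself was listed at 0 in mock cells and reached 413 RPKM in RHCG cells, as labelled.

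All 12 mitotic kinesins were listed above 0 in both libraries. Of the other 30, 16 were listed in both, 1 in the RHCG library alone (KIF9) and 13 in neither. The 13 listed at 0 in both were the mainly neuronal motors KIF1A, KIF5A, KIF5C, KIF17 and KIF21B, together with KIF2B, KIF6, KIF12, KIF19, KIF25, KIF26A, KIF26B and KIF27. A value of 0 can stand for 1 RPKM or less, for no reads or for a gene that was not counted, so it sets no bound. Of 8 neuronal markers 2 were listed above 0 (MAP2 and SYT1, summing to 9.51 RPKM in mock and 10.7 RPKM in RHCG cells), and SNAP25, SYP and RBFOX3 were at 0. The 7 multiciliated, 5 leukocyte and 4 endothelial markers were all at 0 in both libraries, and 2 of 6 fibroblast markers were above 0, with sums of 2.45 and 1.44 RPKM. Of 9 squamous epithelial markers 7 were listed, KRT5 and PKP1 being at 0 in both, and their summed level was 837 RPKM in mock and 406 RPKM in RHCG cells. By the 2-fold rule 3 of the 7 were lower, KRT6A (log2 ratio −3.14), KRT15 (−1.85) and KRT13 (−1.31), and 0 were higher. Over all genes with a ratio 3.30% were lower. Of the 7 markers 5 lay below 0 and 2 above, DSG3 (0.76) and KRT14 (0.27). The part of these squamous differences in the kinesin values was not tested.

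The most abundant kinesin in both libraries was KIF2C, a microtubule depolymerase of the centromere also known as MCAK, at 77.3 RPKM in mock and 66.2 RPKM in RHCG cells. In the mock library it was followed by KIF22 (53.0 RPKM), a chromokinesin that pushes chromosome arms toward the spindle equator, by KIF1C (48.4 RPKM), a vesicle carrier, and by KIFC1 (46.6 RPKM) and KIF20A (41.5 RPKM). In the RHCG library the order after KIF2C was KIF1C (65.7 RPKM), KIFC3 (58.5 RPKM), KIF22 (44.1 RPKM) and KIF5B (34.1 RPKM). KIF20A, which ranked 5 among the kinesins of the mock library, ranked 14 in the RHCG library. Among kinesins listed in both libraries the least abundant kept their ranks: KIF20B, KIF24 and KIF3A stood at 26, 27 and 28 in each, at no more than 3.48 RPKM. KIF9, listed in the RHCG library alone, ranked 29 there.

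Summed over the family, kinesin RPKM came to 539 in mock and 498 in RHCG cells, a ratio of RHCG over mock of 0.923. That is close to the ratio of 0.938 for the summed RPKM of all protein-coding genes. For all genes the ratio was 1.05. The mitotic set went from 316 to 222 RPKM (ratio 0.703) and the comparison set from 223 to 275 RPKM (ratio 1.23). Mitotic kinesins thus held 58.6% of the family's RPKM in mock and 44.7% in RHCG cells. In bulk RNA, fewer cells in mitosis and less transcript per cell cannot be told apart.

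**Figure D1:**
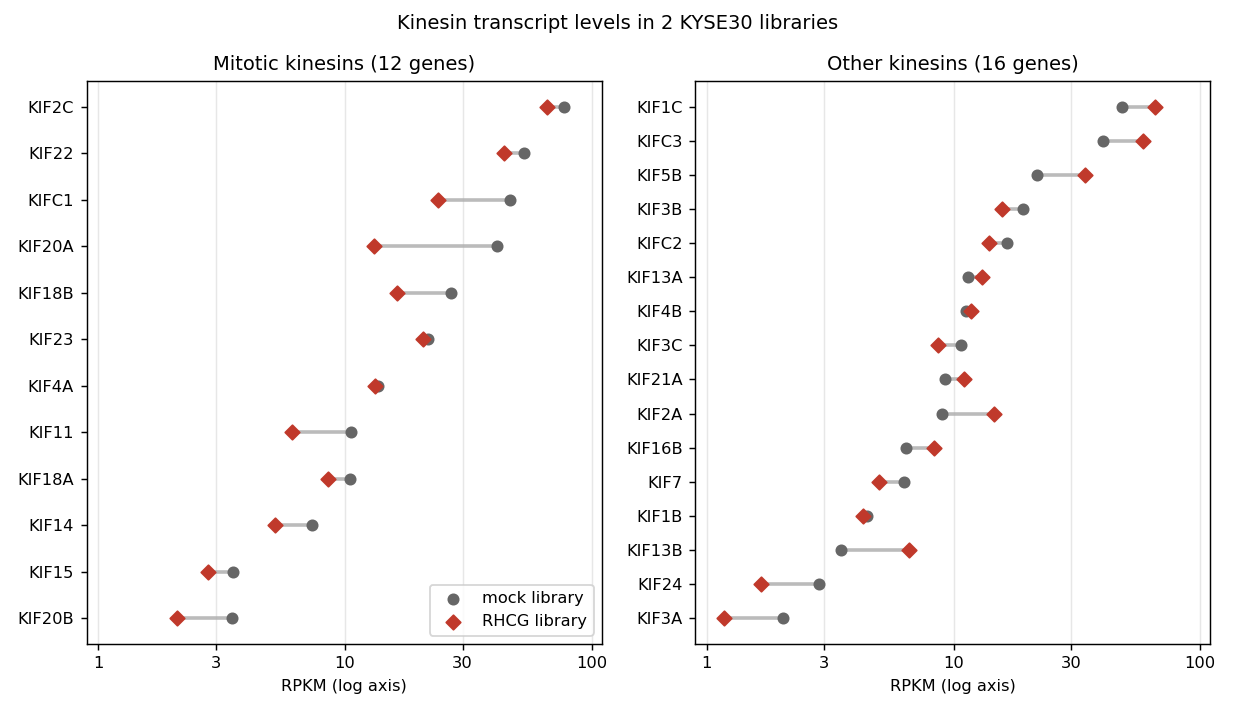
RPKM on a log axis of the 12 mitotic kinesins (left) and the 16 other kinesins listed in both libraries (right), with 1 grey circle for the mock library and 1 red diamond for the RHCG library per gene. Every mitotic diamond lies to the left of its circle, the widest gap being KIF20A at 41.5 and 13.1 RPKM, while KIF1C, KIFC3, KIF5B, KIF2A and KIF13B lie to the right.

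Differences are given as log2((RHCG + 1)/(mock + 1)) in RPKM, called lower or higher from 2-fold on. Of the 29 kinesins that could be given a ratio, 1 was lower, KIF20A, and 0 were higher, while 3.30% of all 12857 genes with a ratio were lower and 2.74% higher. The share of kinesins past 2-fold was thus close to the background. All 12 mitotic kinesins had a log2 ratio below 0, against 50.5% of all genes, and their median was −0.35. Of the 17 other kinesins with a ratio 10 lay above 0, against 49.5% of all genes, and 7 below, with a median of 0.07. That median is the value of KIF9, which was listed in RHCG cells alone and set to 1 RPKM in mock; without KIF9, 9 of 16 lay above 0 and the median was 0.12. The median over all genes was −0.01. The mitotic median lay 0.42 below the other on the log2 scale (difference −0.42), or −0.47 without KIF9. KIF2A also works at spindle poles but was not in the mitotic set; counted there, it left a mitotic median of −0.27 and a difference of −0.34, and leaving out KIF20A gave the same −0.27 and −0.34.

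At 1.5-fold, 4 of the 12 mitotic kinesins were lower (KIF20A, KIFC1, KIF11 and KIF18B) and 0 higher, where 11.5% of all genes were lower. Of the 17 others 3 were higher (KIF13B, KIF2A and KIF5B) and 0 lower, where 11.3% of all genes were higher. These counts rest on the ratio with 1 RPKM added, which draws low values toward 0. With 0.1 RPKM added, KIF24 (−0.75) and KIF3A (−0.74) of the others and the mitotic KIF20B (−0.71) were also past 1.5-fold. The folds given below with an interval are plain RPKM ratios, by which KIF24 and KIF3A were 1.72-fold and 1.73-fold lower. Approximate read numbers gave each ratio a 95% counting interval (Clopper-Pearson), which holds no difference between cultures or library preparations. It lay wholly below 1 for 10 of 12 mitotic kinesins and wholly above 1 for 0. It lay wholly above 1 for 8 and below 1 for 6 of the 16 others. Over all genes it lay wholly above 1 for 38.7% and wholly below for 37.0%, so that most genes passed this bar in 1 direction or the other.

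**Figure D2:**
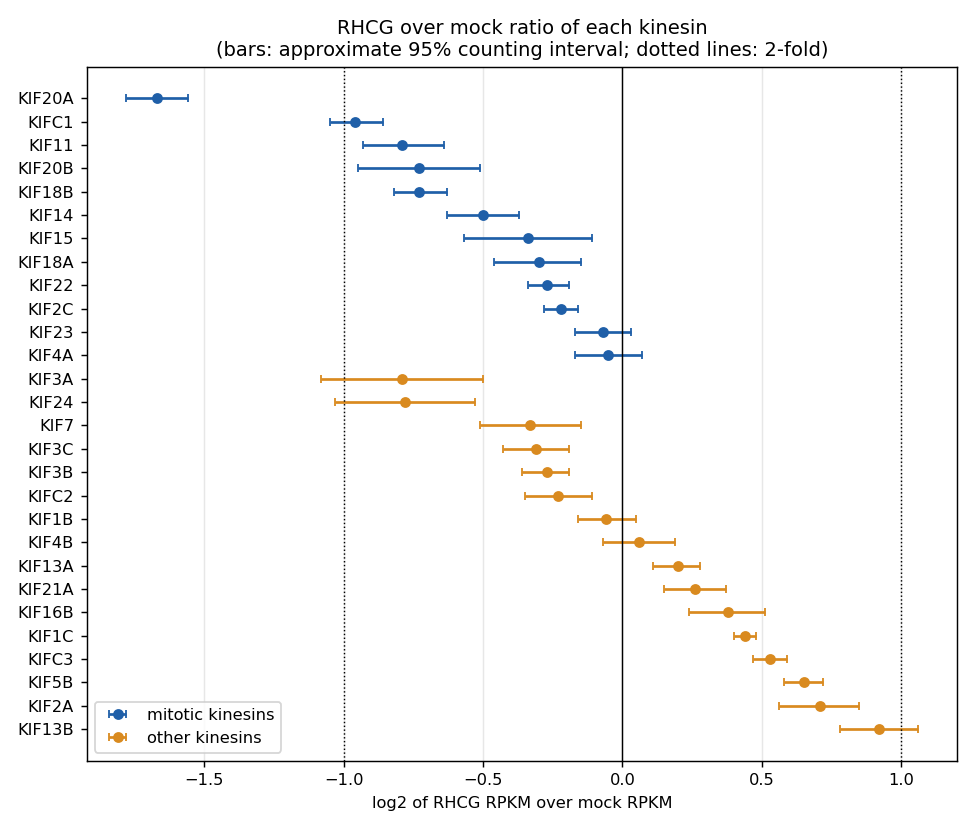
Log2 of the plain RPKM ratio of RHCG over mock for the 28 kinesins listed in both libraries, mitotic in blue and other in orange, with bars for the approximate 95% counting interval and dotted lines at 2-fold. KIF20A lies past the lower dotted line with its whole interval, and the intervals of KIF23, KIF4A, KIF1B and KIF4B cross 0.

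The lowest ratio of the family was that of KIF20A (Entrez gene 10112, chromosome 5), the kinesin-6 motor that carries the chromosomal passenger complex to the midzone of the anaphase spindle. It was at 41.5 RPKM in mock and 13.1 RPKM in RHCG cells, on about 2517 and 924 reads. The level in the RHCG library was 3.17-fold lower (counting interval 2.94 to 3.42), the log2 ratio was −1.59, and 0.6% of all genes with a ratio lay as low or lower. The other kinesin-6 genes differed less. KIF20B (Entrez gene 9585, chromosome 10), a motor of the midbody, was at 3.48 and 2.10 RPKM with a log2 ratio of −0.53. KIF23 (Entrez gene 9493, chromosome 15), which forms the centralspindlin complex of the cleavage furrow, was at 21.8 and 20.8 RPKM, and its log2 ratio of −0.06 had a counting interval that included 1 (plain ratio 0.955, interval 0.891 to 1.02).

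KIFC1 (Entrez gene 3833, chromosome 6) followed, a minus-end-directed kinesin-14 that bundles spindle microtubules and gathers extra centrosomes into 2 poles. It was at 46.6 RPKM in mock and 23.97 RPKM in RHCG cells, 1.94-fold lower (interval 1.82 to 2.08), just short of a call at a log2 ratio of −0.93. KIF11 (Entrez gene 3832, chromosome 10), the kinesin-5 motor Eg5 that pushes the spindle poles apart, was at 10.6 and 6.12 RPKM, 1.73-fold lower (interval 1.56 to 1.91). KIF15 (Entrez gene 56992, chromosome 3), a kinesin-12 that helps to keep the poles apart beside KIF11, was at 3.53 and 2.79 RPKM, a log2 ratio of −0.26. The 3 spindle-forming motors thus lay on the same side of 0, with the low-abundance KIF15 nearest to it.

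The kinesin-8 genes, whose motors act on the plus ends of spindle microtubules, were at 27.0 and 16.3 RPKM for KIF18B (Entrez gene 146909, chromosome 17), 1.65-fold lower (interval 1.55 to 1.77). KIF18A (Entrez gene 81930, chromosome 11), which damps the oscillation of chromosomes, was at 10.5 and 8.54 RPKM, 1.23-fold lower (interval 1.11 to 1.37). KIF14 (Entrez gene 9928, chromosome 1), a kinesin-3 that acts in cytokinesis, was at 7.36 and 5.20 RPKM, 1.41-fold lower (interval 1.29 to 1.55). Of the chromosome- and centromere-bound motors, KIF22 (Entrez gene 3835, chromosome 16) was 1.20-fold lower (interval 1.14 to 1.27) and KIF2C (Entrez gene 11004, chromosome 1) 1.17-fold lower (interval 1.12 to 1.22).

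KIF4A (Entrez gene 24137, chromosome X), a chromokinesin that also sets the length of the spindle midzone, was at 13.7 and 13.2 RPKM, and its counting interval included 1 (plain ratio 0.966, interval 0.891 to 1.05). Its retrocopy KIF4B (Entrez gene 285643, chromosome 5) stands in the comparison set and was at 11.3 and 11.8 RPKM. The longest GENCODE transcripts of KIF4A and KIF4B were 95.3% identical over 4359 aligned bases, so their reads may have been shared and both values are uncertain. Without KIF4B the median of the other kinesins was 0.12 in place of 0.07.

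Promoters of genes transcribed in G2 and M phase are known for a pair of short elements, a CCAAT box bound by the factor NF-Y and, downstream of it, a cell cycle genes homology region (CHR) bound by the MuvB complex, whose usual letters are TTTGAA. RefSeq promoter windows of GRCh38.p14, from 250 bases before to 50 after a gene's start, were matched by Entrez gene to all 12 mitotic kinesins and to 22 of the other 30, with the first listed window used where a gene had several. The stretches below run from 100 bases before the start to 10 after it, 5′ to 3′ on the gene's own strand. They show the 4 mitotic kinesins with the lowest ratios (KIF20A, KIFC1, KIF11, KIF18B), 3 with ratios nearer to 0 (KIF18A, KIF22, KIF4A), and 2 of the comparison set, the lowest and 1 of the highest (KIF24 and KIF2A). Apart from the 4 lowest these are examples, not a full list. KIF2C (−0.22) and KIF15 (−0.26), also nearer to 0, and KIF5B (0.63), also among the highest, are not printed. Their matches are given further down. Capitals mark the CCAAT box, read ATTGG on the other strand, and the CHR forms: TTTGAA, which reads TTCAAA on the other strand, or TTCGAA, which reads alike on both.
KIF20A: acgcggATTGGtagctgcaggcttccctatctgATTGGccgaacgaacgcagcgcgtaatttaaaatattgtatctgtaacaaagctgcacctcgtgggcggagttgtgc
KIFC1: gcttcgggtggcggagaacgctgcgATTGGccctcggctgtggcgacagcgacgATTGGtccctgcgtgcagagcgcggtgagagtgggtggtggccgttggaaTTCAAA
KIF11: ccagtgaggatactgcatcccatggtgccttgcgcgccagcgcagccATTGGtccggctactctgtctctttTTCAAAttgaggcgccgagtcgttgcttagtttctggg
KIF18B: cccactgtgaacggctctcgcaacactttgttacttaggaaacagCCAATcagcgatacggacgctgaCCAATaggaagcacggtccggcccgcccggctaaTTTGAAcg
KIF18A: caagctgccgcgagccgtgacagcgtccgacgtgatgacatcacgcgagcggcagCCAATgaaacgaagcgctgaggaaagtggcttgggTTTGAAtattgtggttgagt
KIF22: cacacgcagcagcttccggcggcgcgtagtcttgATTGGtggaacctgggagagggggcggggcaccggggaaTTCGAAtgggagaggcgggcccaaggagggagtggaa
KIF4A: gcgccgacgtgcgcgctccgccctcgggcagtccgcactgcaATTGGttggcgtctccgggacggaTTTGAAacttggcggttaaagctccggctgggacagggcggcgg
KIF24: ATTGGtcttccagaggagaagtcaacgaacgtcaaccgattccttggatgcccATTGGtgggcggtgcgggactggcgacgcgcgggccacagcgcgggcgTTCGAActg
KIF2A: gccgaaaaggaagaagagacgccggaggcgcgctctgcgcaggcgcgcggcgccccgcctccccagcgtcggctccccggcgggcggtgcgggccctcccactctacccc
Their positions are chr5:138179012-138179121, plus strand (KIF20A); chr6:33391723-33391832, plus strand (KIFC1); chr10:92593030-92593139, plus strand (KIF11); chr17:44947764-44947873, minus strand (KIF18B).
The next are chr11:28108147-28108256, minus strand (KIF18A); chr16:29790651-29790760, plus strand (KIF22); chrX:70290004-70290113, plus strand (KIF4A).
The last are chr9:34329259-34329368, minus strand (KIF24) and chr5:62306106-62306215, plus strand (KIF2A).

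In these stretches a CCAAT box, mostly in the reverse direction, lies ahead of a CHR form in KIFC1, KIF11, KIF18B, KIF18A, KIF22 and KIF4A. The same holds for KIF24 of the comparison set. KIF20A, the lowest member, shows a pair of CCAAT boxes and neither TTTGAA nor TTCGAA. KIF2A shows no CCAAT box and neither of these CHR forms. Other letters of the CHR were not searched for. Searched on both strands of the full windows, TTTGAA was found in 9 of 12 mitotic kinesins, TTCGAA in KIF22, and CCAAT in 10 of 12. Among the 15843 windows of protein-coding genes, 12.1% held TTTGAA, 1.57% held TTCGAA and 36.4% held CCAAT. Either CHR form together with CCAAT was found in 9 of 12 mitotic kinesins, in 3 of 22 others (KIF24, KIF4B and KIF5B) and in 5.57% of all windows. CCAAT began 9 to 50 bases ahead of the CHR form in 8 of the 9 mitotic kinesins and 122 bases ahead in KIF20B. KIF2C held neither element in its window, and KIF15 held TTTGAA with no CCAAT. Of the E2F-like letters also searched, TTTGGCGC was found in KIF15 alone (0.890% of all windows) and GGCGGGAA in no kinesin window (4.24% of all windows).

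The 9420 genes with a ratio and a window had a median log2 ratio of −0.01, with 50.8% below 0. By the 2-fold rule 293 of them were lower and 242 higher. The 439 with a CHR form and CCAAT had a median of −0.18, with 64.2% below 0, 34 lower and 8 higher. The 5349 with neither had a median of 0.02, with 47.9% below 0, 136 lower and 137 higher. The rest, with 1 of the elements alone, were not summarized. Of the mitotic kinesins 9 are among the 439 and KIF2C is among the 5349. KIF20A and KIF15, with 1 of the elements each, are in neither group. KIF24, the comparison kinesin with a CHR form and 3 CCAAT boxes, had the lowest log2 ratio of its set (−0.53, against −0.48 for KIF3A). By the plain ratio KIF3A was as low, 1.73-fold lower against 1.72-fold for KIF24. KIF5B, with TTTGAA 140 bases before its start and CCAAT 59 before, had one of the highest ratios. The elements above are matches of letters, not sites shown to be bound in these cells, and their part in the ratios was not tested.

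Among kinesins of transport, the highest ratio was that of KIF13B (Entrez gene 23303, chromosome 8), a kinesin-3 that carries membrane cargo and the scaffold protein DLG1. It was at 3.50 RPKM in mock and 6.61 RPKM in RHCG cells, 1.89-fold higher (interval 1.72 to 2.08), with a log2 ratio of 0.76. KIF5B (Entrez gene 3799, chromosome 10), the conventional kinesin heavy chain of non-neuronal cells, was at 21.8 and 34.1 RPKM, 1.57-fold higher (interval 1.49 to 1.65). It was the only kinesin-1 gene listed above 0. Of the kinesin-3 class, KIF1C (Entrez gene 10749, chromosome 17) was 1.36-fold higher (interval 1.32 to 1.40) and rested on the most reads of any kinesin, about 7256 and 11477. KIF16B, which binds early endosomes, was at 6.42 and 8.33 RPKM, and KIF13A, a carrier of recycling endosomes, at 11.4 and 13.1 RPKM. KIF1B, a carrier of mitochondria and synaptic vesicle precursors, was at 4.46 and 4.28 RPKM with an interval that included 1. Of the 6 kinesin-3 genes with a ratio, the 4 above 0 were all transport motors, and the mitotic KIF14 was the lowest.

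KIFC3 (Entrez gene 3801, chromosome 16), a minus-end motor found at adherens junctions of epithelial cells, was at 40.5 RPKM in mock and 58.5 RPKM in RHCG cells, 1.45-fold higher (interval 1.39 to 1.51). The kinesin-14 class thus held members on both sides, with KIFC1 at −0.93, KIFC2 at −0.22 and KIFC3 at 0.52 on the log2 scale. The kinesin-13 class was split as well: KIF2A (Entrez gene 3796, chromosome 5), a depolymerase of spindle poles and neurites, was at 8.94 and 14.6 RPKM, 1.63-fold higher (interval 1.48 to 1.80). KIF24 (Entrez gene 347240, chromosome 9), which acts at the mother centriole and restrains cilium formation, was at 2.84 and 1.65 RPKM, 1.72-fold lower (interval 1.45 to 2.05). Its kin KIF2C lay between them at −0.22. KIF21A, a kinesin-4 that slows microtubule growth, was at 9.20 and 11.01 RPKM.

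All 3 kinesin-2 genes with a ratio lay below 0. KIF3A (Entrez gene 11127, chromosome 5), which pairs with KIF3B in ciliary transport, was at 2.03 RPKM in mock and 1.17 RPKM in RHCG cells, on about 246 and 166 reads (1.73-fold lower, interval 1.42 to 2.12). KIF3B was at 19.1 and 15.8 RPKM and KIF3C at 10.7 and 8.62 RPKM. KIF7, a kinesin-4 of the cilium tip that acts in hedgehog signalling, was at 6.29 and 4.99 RPKM. KIF9, linked to motile cilia, was listed at 0 in mock and at 1.09 RPKM in RHCG cells. It was the member that passed the filter through 1 library alone; its antisense neighbour KIF9-AS1 was not separated from it here, since no source used here tells whether counting used strand.

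The genes that work with kinesins were read as lists. Over all genes with a ratio 50.5% lay below 0 and 49.5% above. Of 22 spindle partners of mitotic kinesins, all listed in both libraries, 18 lay below 0 and 4 above, with a median of −0.40, close to the −0.35 of the mitotic kinesins. By the 2-fold rule 1 was lower, GTSE1, a microtubule-associated protein of G2 and M phase, at 11.8 RPKM in mock and 5.25 RPKM in RHCG cells (log2 ratio −1.03), and 0 were higher. Over all genes 3.30% were lower and 2.74% higher, so 1 of 22 is near the background. The 4 above 0 were NUMA1 (0.32), KNSTRN (0.30), CKAP2 (0.24) and CKAP5 (0.08). These 4 and the partners named next were chosen after their values were seen, and the latter all lay below 0. AURKB and BIRC5, subunits of the passenger complex that KIF20A carries, were at 53.3 and 26.7 RPKM (log2 ratio −0.97) and at 88.9 and 49.2 RPKM (−0.84). INCENP and CDCA8, the remaining subunits, had log2 ratios of −0.42 and −0.72. RACGAP1, the partner of KIF23 in centralspindlin, had a log2 ratio of −0.57, while PRC1, the midzone bundler that binds KIF4A and KIF14, was at −0.16. TPX2, which recruits KIF11 and KIF15 to the spindle, was at 82.8 and 61.7 RPKM (log2 ratio −0.42).

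CENPE, the kinesin-7 motor of the kinetochore, whose symbol keeps it out of the family as taken here, was at 3.06 RPKM in mock and 2.35 RPKM in RHCG cells, a log2 ratio of −0.28. With CENPE counted, 13 of 13 mitotic motors lay below 0. STARD9, another kinesin by sequence, was listed at 0 in both libraries.

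The 15 transcription factors that bind promoters of mitotic genes had a median log2 ratio of 0.15, and 0 passed 2-fold. Over all genes 3.30% were lower and 2.74% higher. The most abundant were E2F4, a repressor subunit of the DREAM complex, at 91.8 RPKM in mock and 137 RPKM in RHCG cells, and MYBL2, the activator B-MYB, at 54.5 and 49.7 RPKM. FOXM1, the activator of G2 and M genes, named after its value was seen, was at 41.6 and 36.5 RPKM, a log2 ratio of −0.19. In this list 10 genes lay above 0 and 5 below, where 49.5% of all genes lay above 0.

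Of 24 cargo adaptors, light chains and recruiters of transport kinesins, 23 had a ratio, with a median of 0.18, 16 above 0 and 7 below. Over all genes 49.5% lay above 0 and 50.5% below. By the 2-fold rule 1 adaptor was lower and 0 higher, near the 3.30% and 2.74% of all genes. The lower one was KIFBP, a protein that binds the motor domains of several kinesins, KIF15 and KIF18A among them, and keeps them off microtubules, at 17.1 RPKM in mock and 7.96 RPKM in RHCG cells (log2 ratio −1.02). KLC1, a light chain that links kinesin-1 to cargo, was at 28.6 and 44.8 RPKM (log2 ratio 0.63, equal to that of KIF5B to 2 decimals), and was named after its value was seen. Cytoplasmic dynein and dynactin, the motor that moves toward minus ends, had a median of 0.10 over 27 genes with 14 above 0, 13 below and 0 past 2-fold. That median was −0.01 over genes with a mean of 5 RPKM or more. Its members with the highest mean over both libraries were DCTN2, at 97.1 and 80.2 RPKM, and DCTN1, at 81.5 and 80.8 RPKM. Ciliary transport genes, the cargo trains of kinesin-2, had a median of −0.10 over 22 genes with 9 above 0, 13 below and 0 past 2-fold. IFT27 and IFT140, highest by the mean of both libraries, stood at 14.7 and 12.2 RPKM for the former and 13.1 and 11.8 RPKM for the latter.

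**Figure D3:**
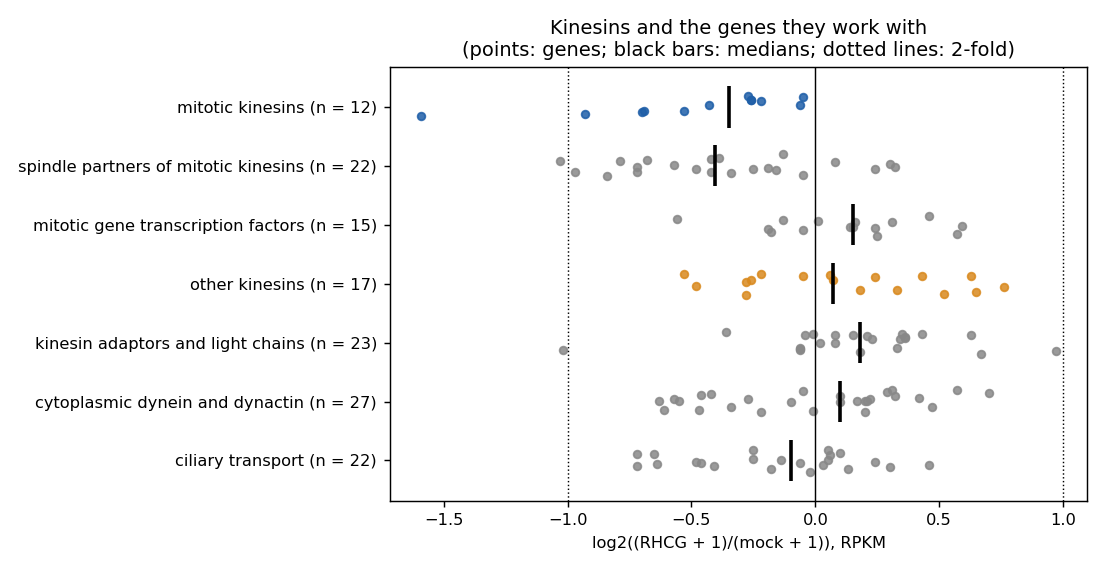
Log2((RHCG + 1)/(mock + 1)) in RPKM for each gene with a ratio in 7 lists, with 1 point per gene, a black bar for the list median and dotted lines at 2-fold. Mitotic kinesins (median −0.35) and their spindle partners (−0.40) lie mostly left of 0, and other kinesins (0.07) and adaptors (0.18) spread around it.

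Each kinesin was also set against the median ratio of the 51 protein-coding genes centred on it in RefSeq order, itself included. These medians ran from −0.40 around KIF3A to 0.32 around KIF2A. Whether ratios shift in blocks along chromosomes was not tested. KIF20A lay in a lowered stretch of chromosome 5, with a neighbourhood median of −0.39, and was at −1.20 with that taken off, still past 2-fold. KIF3A, on the same chromosome, had neighbours at −0.40 and was at −0.08 without them. KIF2A, elsewhere on chromosome 5, had neighbours at 0.32 and was at 0.32 with them taken off. To 2 decimals, KIF18A lay at 0.00 from its neighbourhood median of −0.28, KIF23 at 0.00 from its own of −0.06, and KIF4A lay 0.02 above its own, so that 9 of 12 mitotic kinesins remained below 0. KIFC1 (−0.85), KIF11 (−0.68), KIF14 (−0.56), KIF13B (0.74), KIF5B (0.55) and KIFC3 (0.55) kept their sides with their neighbours taken off. The set medians were −0.37 for mitotic and 0.11 for other kinesins after this step.

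**Figure D4:**
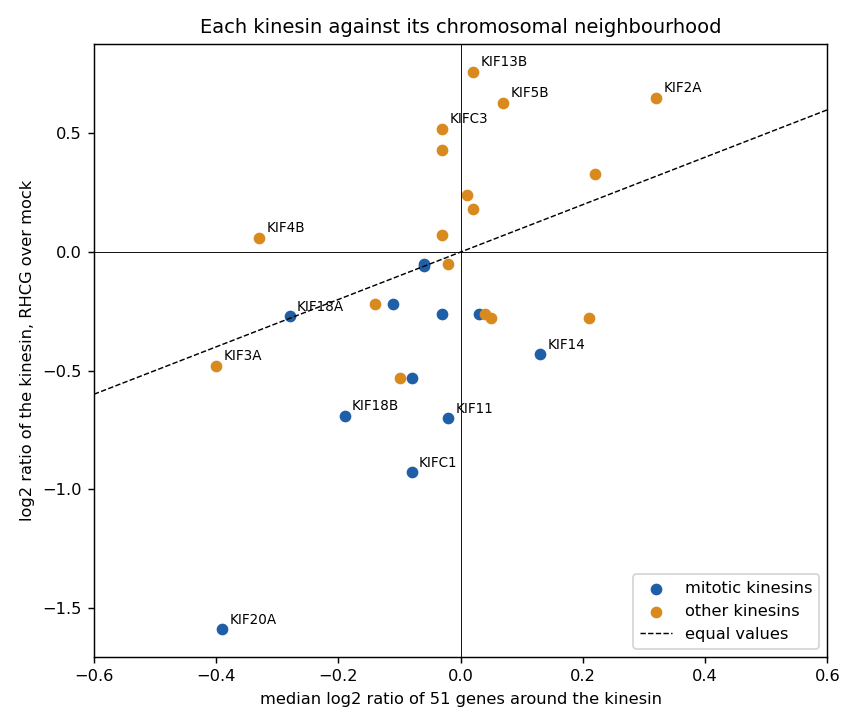
Log2 ratio of each of the 29 kinesins against the median log2 ratio of the 51 genes centred on it, mitotic in blue and other in orange, with a dashed line of equal values. KIF20A lies far below the line in a neighbourhood at −0.39, while KIF18A and KIF3A lie close to it.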

How the data were processed

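RNA sequencing tables of 2 KYSE30 libraries, 1 per group, were used. The authors deposited a table for each, headed RPKM, after converting the RPKM to log2 values with none below 0; the log2 scale is read from the range. The submitters' processing notes name hg19 and bedtools 2.25.0; aligner and counting method: not given in the sources used here. All 40448 rows were summed to 40392 Entrez genes and named from RefSeq of GRCh38.p14. Genes listed at 0 in 1 library were set to 1 RPKM, and 1 RPKM was added before each ratio; genes with a ratio were those listed in at least 1 library whose mean was 1 RPKM or more. A 2-fold ratio was a call; there was no test.

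Read numbers are RPKM times GENCODE v29 exonic length times a depth found from small RNA genes, where 24.2% (44 of 182) and 37.0% (64 of 173) of values under 20 reads lay within 0.002 of a whole number; counts could not be recovered. Intervals cover counting error only. Members and lists were chosen with earlier results of these data known. Any kinesin may be named. From each other list the named genes are up to 4 past 2-fold or, with none, the 2 with the highest mean RPKM. Markers at 0, neuronal markers, DSG3, KRT14 and further partners were named outside this rule, after their values were seen. Alternatives were 0.1 RPKM added, no filter, a mean of at least 5 RPKM, median-of-ratios and trimmed mean scaling, genes listed at 0 set to 0 RPKM, 1.5-fold, the highest row of a gene, the neighbour shift and a lowess trend on GC content and transcript length (known for all 42 kinesins) taken off. Alignment used blastn 2.17.0; other steps ran in Python 3.11.15 with pandas 2.3.3, numpy 2.4.6, statsmodels 0.14.6 and scipy 1.17.1.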

Additional observations from a re-analysis of the deposited data

How the results depend on the processing

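No paired analysis was possible because each group had 1 library, so leaving out a library was not possible either. At 1.5-fold the count of lower kinesins went from 1 to 4 and that of higher ones from 0 to 3. Among genes whose mean was 5 RPKM or more, the median of other kinesins was 0.24 in place of 0.07, and the mitotic minus other difference −0.59 in place of −0.42. With a GC and length trend taken off, the mitotic median was −0.49 in place of −0.35, the difference −0.61, and CENPE was at −0.47 in place of −0.28. The remaining alternatives moved the medians and the difference by no more than the members' approximate counting error. The settings that moved KIF2A, KIF4B, KIF9 or KIF20A between or out of the sets were added once the data had been seen. Dropping the filter gave the same genes by construction. Of 283 single kinesin ratios under the alternatives, 263 stayed within counting error and 20 moved further. Many of the 263 could not move, since changing the filter or calling at 1.5-fold leaves a single ratio as it is. Taking the highest row, or setting genes listed at 0 to 0 RPKM, also left each kinesin ratio given under it the same to 2 decimals. KIF20A, the only called kinesin, did not turn its sign. Of the kinesins listed in both libraries, depth limits KIF3A, KIF24 and KIF15 most, whose values rest on the fewest reads.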
